A study of Homo sapiens with 6 samples.

Results

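The 9 genes described here encode the receptors for type I interferon (Ifnar1 and Ifnar2) and type II interferon (Ifngr1 and Ifngr2), 2 of the kinases bound to those receptors (Jak1 and Tyk2), and 3 transcription factors downstream of them (Stat2, Irf9 and Irf1). They were chosen by symbol, with earlier results of these data known, and all 9 were found among the 21872 rows of the deposited table and had enough counts to test. The RNA came from MOC2, a line derived from an oral squamous cell carcinoma of the mouse. There were 3 control libraries and 3 with the genotype label knockout, in which Elavl1, the gene for the RNA-binding protein HuR, had been targeted with CRISPR/Cas9. Both groups had been treated with lentiviral particles (25 MOI, 18 h) that carried a control or a HuR construct and were kept in the same medium for 72 h more. The titles of the knockout libraries call them HuR KD. The labels describe the isolation of 1 clone and name no separate clones, so the p-values reflect only how far these libraries spread, and some of that spread may be technical. Elavl1 mRNA averaged 115 ± 6.58 CPM in the controls and 112 ± 5.73 CPM in the knockouts (SD, n = 3 each; adjusted p = 0.82 by edgeR), a level that does not check the labels, since an edited mRNA can keep its abundance.

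Type I interferon binds a receptor made of IFNAR1, which carries the kinase TYK2, and IFNAR2, which carries JAK1. Type II interferon binds IFNGR1, which also carries JAK1, together with IFNGR2. The kinases phosphorylate STAT proteins. STAT2, IRF9 and a further STAT form the complex ISGF3, which binds the response elements of antiviral genes, while IRF1 is a transcription factor made in response to type II interferon above all. Epithelial cells carry both receptors, and the genes of Stat2, Irf9 and Irf1 are themselves known to be induced by interferon.

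Libraries held 16158516 to 21294330 counts, and levels are given in the usual CPM unit, scaled by the TMM method, which compare libraries for 1 gene but not 1 gene with another. The knockout libraries were not alike. Log2 CPM of knockout libraries 1 and 2 correlated at a Pearson's r of 0.981 across genes (genes are no independent replicates), while r was 0.927 and 0.932 between these and knockout library 3. Showing knockout library 3 apart was set in advance, with earlier results of these data known, and values without it are given beside the results. Of 6 epithelial markers, all were detected in every library, with a summed level of 10556 to 12776 CPM in control and 5766 to 8253 CPM in knockout. Keratins made up most of these sums. Epcam fell from 541 ± 67.6 to 36.9 ± 16 CPM and Cdh1 from 599 ± 73 to 44.7 ± 19.2 CPM (adjusted p = 0.000645 and 0.000694 in edgeR, n = 3 each), Krt7, Krt8 and Krt18 fell as well, and Krt19 did not pass (adjusted p = 0.342). Of 9 immune cell markers, Adgre1 and Itgam were at 0 in every library and Ptprc was at 0 in every knockout library. The summed level of the immune list was 16.7 to 24.7 CPM in control and 25.5, 28 and 65.7 CPM in knockout libraries 1, 2 and 3, nearly all of it from Cd14 and Cd68. Cd14 rose from 16.4 ± 1.93 to 25.7 ± 3.24 CPM (adjusted p = 0.0254 by edgeR, n = 3 each). Cd68 was at 36.8 CPM in knockout library 3 and did not pass (adjusted p = 0.248 by edgeR). Of 8 fibroblast markers Lum was at 0 in every library, and the summed level was 3.73 to 8.42 CPM in control and 408 to 430 CPM in knockout. Nearly all of the knockout sum came from Col1a1, Col3a1 and Pdgfrb. Col1a2, Dcn and Postn stayed under 1 CPM in every library, and Pdgfra did not pass (adjusted p = 0.595 by edgeR). The summed level of 5 endothelial markers was 0.54 to 0.729 CPM in control and 0.545 to 1.96 CPM in knockout. The part of these markers in the results was not tested. In bulk RNA, fewer cells of a type and less RNA per cell cannot be told apart.

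Of the 9 genes, 3 rose in knockout (Ifnar1, Tyk2 and Irf9), none fell, and 6 did not pass the test at an adjusted p of 0.05. Over all 12293 genes tested, 35.7% passed, 20.3% higher and 15.4% lower in knockout. The share among the 9 was thus near that of all genes. For the same 3 genes the ranges of the groups were apart, against 57.6% of all genes (29.7% with knockout higher). The median log2 fold change was 0.62 over the 9 genes and 0.03 over all genes tested. Without knockout library 3 the same 3 genes passed, the median of the 9 was 0.33, and 48.3% of all genes passed. DESeq2 called 4 of the 9 genes and 43.0% of all genes, and limma-voom 2 and 34.9%. Without control library 1, 2 or 3 only Ifnar1 and Tyk2 passed, beside 21.5%, 18.4% and 18.8% of all genes. Without knockout library 1 or 2, 4 and 3 of the 9 passed, beside 35.2% and 28.5%.

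**Figure D1:**
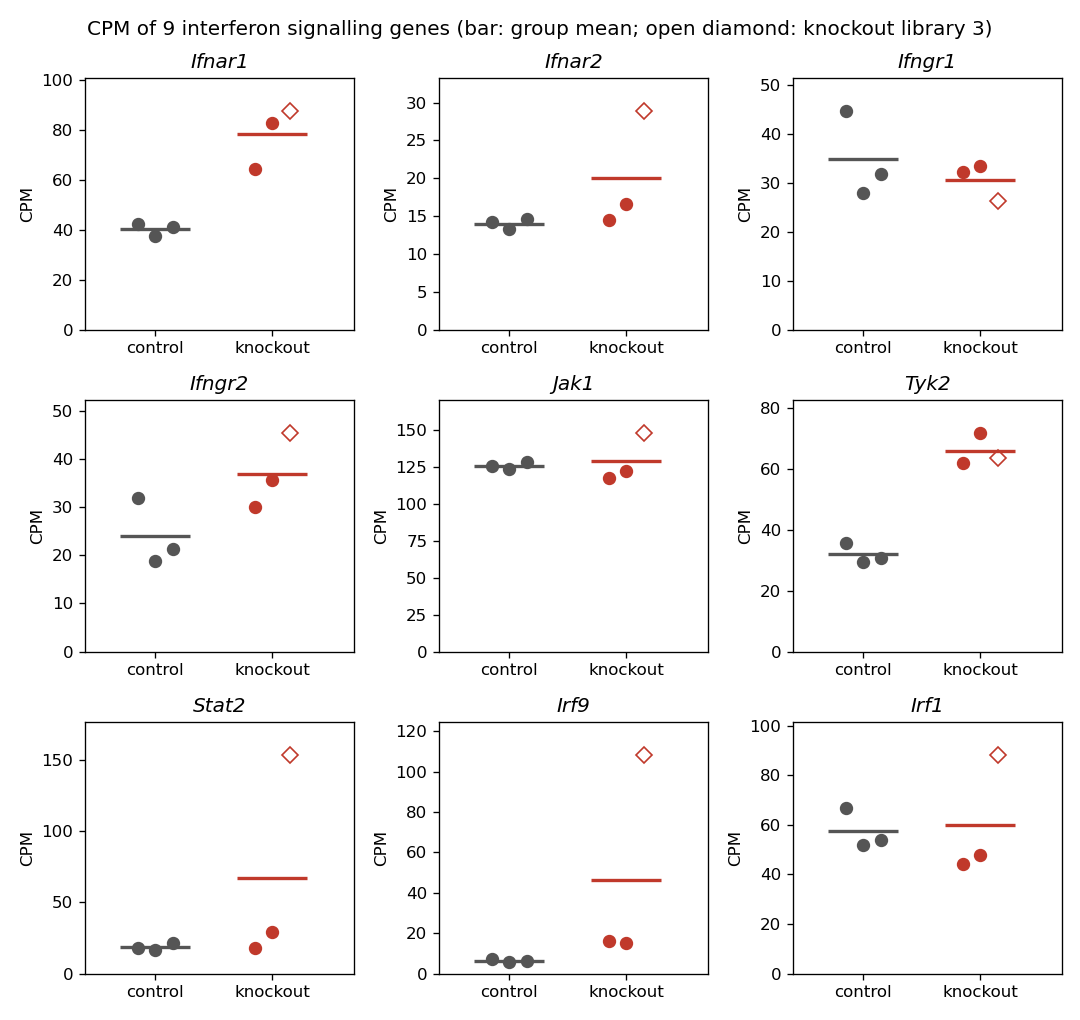
Each panel plots the CPM of 1 gene on a linear axis from 0 in 3 control and 3 knockout libraries, with the group mean as a bar and knockout library 3 as an open diamond. Ifnar1, Tyk2 and Irf9 were higher in every knockout library than in every control library, while the Stat2 mean of 66.7 CPM in knockout rests on 153 CPM in knockout library 3.

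Of the subunits of the type I receptor, Ifnar1 rose and Ifnar2 did not pass the test. Ifnar1 stood at 42.4, 37.6 and 41.1 CPM in the controls (libraries 1, 2 and 3) and 64.4, 82.8 and 87.5 CPM in the knockout libraries (1, 2 and 3). Every knockout library lay above every control library, and knockout library 3 was close to knockout library 2. Ifnar1 rose 1.94-fold, from 40.4 ± 2.49 to 78.2 ± 12.2 CPM (log2 fold change 0.95, SE 0.152, adjusted p = 0.00443 in edgeR, quasi-likelihood, n = 3 each). It passed under all 15 other settings tried, with log2 fold changes of 0.87 to 1.08 and adjusted p-values of 2.9e-06 to 0.0325 (0.87 and adjusted p = 0.000991 without knockout library 3). Ifnar2, the subunit that binds the ligand with higher affinity, stood at 14.2, 13.3 and 14.6 CPM in the controls and 14.5, 16.6 and 28.9 CPM in the knockout libraries. Knockout library 3 stood well above the other 5 libraries, and knockout library 1 lay within the control values. The log2 fold change of Ifnar2 was 0.51 (95% interval -0.16 to 1.18, adjusted p = 0.197 by edgeR) and 0.15 without knockout library 3 (adjusted p = 0.423).

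Neither subunit of the type II receptor passed the test. Ifngr1, the ligand-binding chain, stood at 44.6, 27.9 and 31.8 CPM in the controls and 32.2, 33.4 and 26.2 CPM in the knockout libraries. Control library 1 held the highest value and knockout library 3 the lowest. The log2 fold change of Ifngr1 was -0.18 (95% interval -0.69 to 0.32, adjusted p = 0.529 by edgeR) 0.03 without control library 1 and -0.08 without knockout library 3 (adjusted p = 0.751). Ifngr2, the signalling chain, stood at 31.9, 18.7 and 21.4 CPM in the controls and 29.9, 35.6 and 45.3 CPM in the knockout libraries. Knockout library 1 lay below control library 1, so the groups overlapped. The log2 fold change of Ifngr2 was 0.62 (95% interval 0.01 to 1.23) and 0.45 without knockout library 3 (adjusted p = 0.157 by edgeR). Its unadjusted p was 0.0467 and its adjusted p 0.102 by edgeR, and no other setting called it (adjusted p = 0.0517 to 0.308).

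Of the receptor kinases, Tyk2 rose and Jak1 did not pass the test. Tyk2 stood at 35.6, 29.6 and 30.6 CPM in the controls and 62.1, 71.8 and 63.7 CPM in the knockout libraries. All knockout libraries lay together, with knockout library 3 between the other 2. Tyk2 rose 2.06-fold, from 31.9 ± 3.23 to 65.9 ± 5.19 CPM (log2 fold change 1.05, SE 0.134, adjusted p = 0.00211 in edgeR, quasi-likelihood, n = 3 each), and it passed under all 15 other settings (log2 fold changes of 0.96 to 1.12, adjusted p = 4.01e-10 to 0.0186). Without knockout library 3 its log2 fold change was 1.07 (adjusted p = 0.000288 by edgeR). Jak1, the kinase shared by both receptors, stood at 125, 124 and 128 CPM in the controls and 117, 122 and 148 CPM in the knockout libraries. Knockout libraries 1 and 2 were below all controls and knockout library 3 above them. The log2 fold change of Jak1 was 0.04 (95% interval -0.27 to 0.35, adjusted p = 0.838 by edgeR) and -0.07 without knockout library 3 (adjusted p = 0.541), so a doubling such as that of Tyk2 lies outside the interval.

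Among the transcription factors, knockout library 3 held the highest level of each. Irf9, the DNA-binding part of ISGF3, was at 7.3, 5.74 and 6.2 CPM in control, on 102 to 156 counts, and at 15.9, 15 and 108 CPM in knockout. All knockout libraries were above all controls, and 77.8% of the summed knockout CPM came from knockout library 3. With all libraries Irf9 rose 7.21-fold, from 6.41 ± 0.799 to 46.4 ± 53.5 CPM (log2 fold change 2.85, SE 0.83, adjusted p = 0.0375 in edgeR, quasi-likelihood, n = 3 each). Without knockout library 3 it rose 2.41-fold (log2 fold change 1.27, SE 0.179, adjusted p = 0.000755 by edgeR). Its call failed when control library 1, 2 or 3 was left out (adjusted p = 0.107, 0.128 and 0.122) with limma-voom (adjusted p = 0.125) and with the replicate block (adjusted p = 0.0706), and DESeq2 kept it (adjusted p = 0.000542).

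Stat2, the STAT of ISGF3 that is particular to interferon receptors, stood at 18, 16.8 and 21.5 CPM in the controls and 18, 28.8 and 153 CPM in the knockout libraries. Knockout library 1 lay among the controls, knockout library 2 was above every control, and knockout library 3 was 8.17 times the control mean. The log2 fold change of Stat2 was 1.83, with an SE of 0.782 and a 95% interval from -0.04 to 3.70 (adjusted p = 0.114 by edgeR) and 0.33 without knockout library 3 (SE 0.213, adjusted p = 0.243). Without knockout library 1 Stat2 passed (adjusted p = 0.0404), as it did with DESeq2 (adjusted p = 0.0302).

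Irf1 stood at 66.7, 52 and 53.9 CPM in the controls and 44.4, 47.9 and 88.2 CPM in the knockout libraries. Knockout libraries 1 and 2 were below every control and knockout library 3 above every control. The log2 fold change of Irf1 was 0.06 (95% interval -0.62 to 0.74, adjusted p = 0.879 by edgeR) with all libraries and -0.32 without knockout library 3 (SE 0.133, adjusted p = 0.0792).

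**Figure D2:**
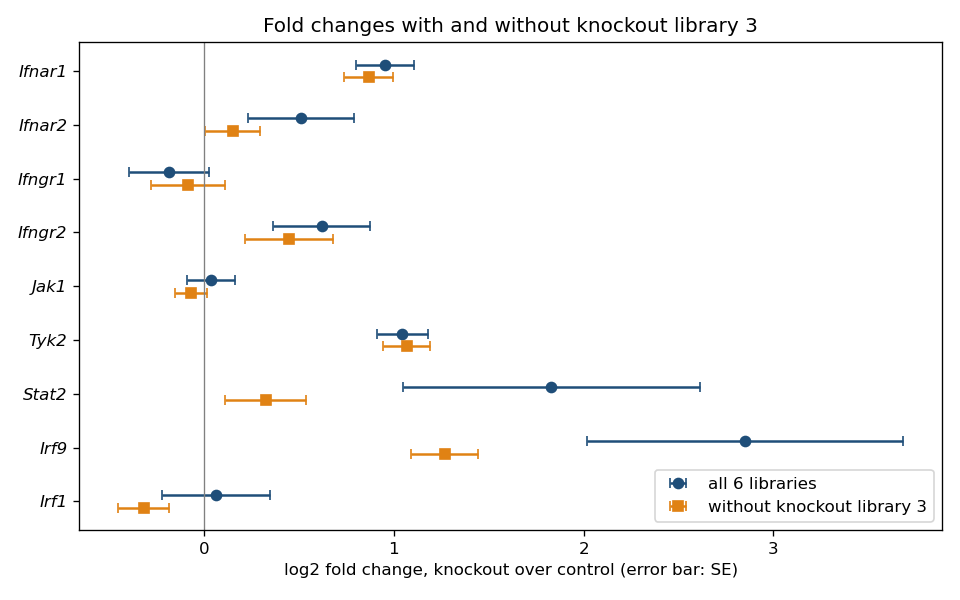
Log2 fold changes of knockout over control, with SE as error bars, for the 9 genes with all 6 libraries (circles) and without knockout library 3 (squares). Ifnar1 was at 0.95 and 0.87 and Tyk2 at 1.05 and 1.07, Irf9 moved from 2.85 to 1.27 and Stat2 from 1.83 to 0.33, and Irf1 changed sign without passing the test either way.

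Knockout library 3 held the highest CPM of all 6 libraries for 7 of the 9 genes, all but Ifngr1 and Tyk2, against 33.7% of all genes tested. On the log2(CPM + 0.5) scale knockout library 3 exceeded the mean of knockout libraries 1 and 2 by 2.77 for Irf9 and 2.72 for Stat2. Only 0.708% and 0.748% of the 12293 genes tested had a larger difference. For Irf1 and Ifnar2 the differences were 0.93 and 0.88, with 9.98% and 10.9% of genes above them. The values of Ifngr2 (0.47), Jak1 (0.30), Ifnar1 (0.26), Tyk2 (-0.07) and Ifngr1 (-0.32) lay nearer to the median of all genes, 0.01. With 1 library on one side these are descriptions without a test. The part that Cd68, which was also highest in knockout library 3, or the epithelial level plays in these differences was not tested. The summed epithelial level was 8253, 6244 and 5766 CPM in knockout libraries 1, 2 and 3. Of the epithelial markers, only Krt8 and Krt19 were lower in knockout library 3 than in knockout library 2.

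Ratios of partner genes (receptor subunits, kinases, ISGF3 parts), and of Irf1 to Irf9, were compared between libraries, where a change in the ratio needs no gene length. The log2 ratio of Ifnar1 to Ifnar2 was 1.58, 1.50 and 1.50 in control and 2.15, 2.32 and 1.60 in knockout, a mean difference of 0.50. Knockout library 3, in which Ifnar2 was highest, lay just above the top control. The log2 ratio of Tyk2 to Jak1 was -1.82, -2.06 and -2.07 in control and -0.92, -0.77 and -1.21 in knockout (mean difference 1.02). That of Ifngr1 to Ifngr2 was 0.48, 0.58 and 0.57 in control and 0.11, -0.09 and -0.79 in knockout (mean difference -0.80), and here the control libraries, which differed in each subunit, held nearly 1 ratio. Control library 1 was high for both subunits.

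Both ratios with Irf9 as the denominator were lower in every knockout library than in every control. The log2 ratio of Stat2 to Irf9 was 1.30, 1.55 and 1.80 in control and 0.18, 0.94 and 0.50 in knockout, a mean difference of -1.01, and knockout library 3 lay between the other 2. The log2 ratio of Irf1 to Irf9 was 3.19, 3.18 and 3.12 in control and 1.48, 1.68 and -0.30 in knockout (mean difference -2.21). The groups did not overlap for any of the 5 ratios, but the share over other gene pairs was not computed. Among single genes tested, 57.6% had groups apart, Ifnar1, Tyk2 and Irf9 with them. Each ratio but that of Ifngr1 to Ifngr2 includes such a gene. The exact two-sided permutation test gave p = 0.1 for each (0.1 after Benjamini-Hochberg adjustment over 5), which is the smallest p that 3 against 3 libraries allow, so none can pass 0.05. The mean differences kept their sign when any 1 library was left out.

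**Figure D3:**
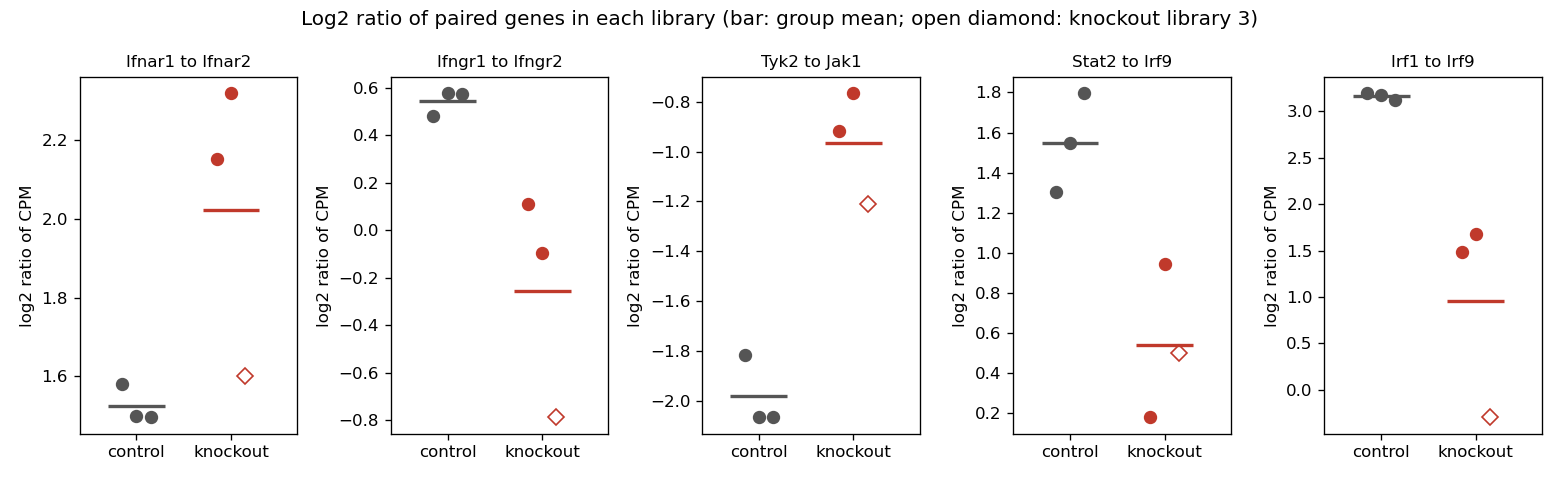
Log2 ratio of the CPM of 2 genes in each library, for 5 pairs, with group means as bars and knockout library 3 as an open diamond (each panel has its own axis). Control libraries lay between 3.12 and 3.19 for Irf1 to Irf9 and between 1.30 and 1.80 for Stat2 to Irf9. The groups did not overlap in any panel, and the share over other gene pairs was not computed.

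The gene lists that follow were drawn up with earlier results of these data known, and their counts are descriptions. No interferon gene had enough counts to test. Of 21 interferon genes, 16 had no count in any library, and the summed level of the list was no more than 0.196 CPM in any control and 0.367 CPM in any knockout library. Ifnb1, the gene for interferon beta, had a deposited value of 33 in knockout library 3 and 0 elsewhere. Its row is one of those divided by 11 before the test, which leaves 3 counts. Ifng, the type II interferon gene, had 22 as deposited in control library 2, or 2 counts after division, and 0 elsewhere.

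The wider families of interferon receptors, JAKs, STATs and IRFs held 17 further genes, of which 15 could be tested. Of these, 7 rose and 3 fell, where 35.7% of all genes passed. Irf7, 1 of the 7, averaged under 1 CPM in control and entered the test with the help of its knockout counts. Numbers that include it do not measure the families. Together with the 9 genes above, 10 of 24 rose and 3 fell. When control library 1, 2 or 3 was left out these were 5 and 2, 3 and 2, and 4 and 2. Calls over all genes in those fits were 21.5%, 18.4% and 18.8%. Ifnlr1, Il10rb, Irf2, Irf7 and Irf3 were picked after their values were seen. Ifnlr1, the specific chain of the type III interferon receptor, stood at 16.5, 11.7 and 15.4 CPM in the controls and 4.52, 3.48 and 6.3 CPM in the knockout libraries, and it fell 3.05-fold (adjusted p = 0.00649 by edgeR). Every knockout library was thus below every control, the opposite side from Ifnar1. Il10rb, the chain that IFNLR1 pairs with, averaged 6.07 ± 0.742 CPM in the controls and 8.33 ± 1.56 CPM in the knockouts (adjusted p = 0.172 by edgeR, n = 3 each).

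Among the IRFs, Irf2, which binds the same elements as IRF1 and is known as its antagonist, stood at 29.5, 23.7 and 27 CPM in the controls and 53.5, 82.9 and 148 CPM in the knockout libraries. It rose 3.55-fold (adjusted p = 0.0104 by edgeR) and 2.56-fold without knockout library 3 (adjusted p = 0.00143), and its call was lost without control library 2 (adjusted p = 0.0533). Irf7, which amplifies type I interferon signalling, stood at 1.92, 0.589 and 0.425 CPM in the controls and 6.32, 5.98 and 140 CPM in the knockout libraries. It rose 50.2-fold with all libraries (adjusted p = 0.0321 by edgeR) and 6.12-fold without knockout library 3 (adjusted p = 0.00729). Without control library 1 the fitted fold was 97.0 and the call was lost, as it was without control library 2 or 3 (adjusted p = 0.0774, 0.118 and 0.113). It was lost too with limma-voom (fitted fold 19.3, adjusted p = 0.185) and with the replicate block (17.7, adjusted p = 0.0814). DESeq2 gave Irf7 no adjusted p. Irf3, the constitutive factor that acts upstream of interferon, averaged 50.5 ± 3.46 CPM in the controls and 46.7 ± 2.69 CPM in the knockouts (adjusted p = 0.496 by edgeR, n = 3 each).

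Of 16 negative regulators of JAK-STAT signalling tested, 2 rose, 1 fell and 13 did not pass, with a median log2 fold change of 0.04, where 20.3% of all genes rose, 15.4% fell and the median was 0.03. Pias3, a SUMO ligase that binds STATs, rose 2.16-fold, from 26.4 ± 2.1 to 56.9 ± 7.52 CPM (adjusted p = 0.00241 by edgeR, n = 3 each). Socs3, a feedback inhibitor of gp130-type receptors, stood at 37, 35 and 39.8 CPM in the controls and 115, 73.1 and 272 CPM in the knockout libraries. It rose 4.12-fold (adjusted p = 0.017 by edgeR) and 2.53-fold without knockout library 3 (adjusted p = 0.00143), and its call failed when control library 1, 2 or 3 was left out (adjusted p = 0.0663, 0.0738 and 0.0663). Socs6 fell 1.65-fold (adjusted p = 0.0331 by edgeR), a call lost without any 1 control library (adjusted p = 0.0906, 0.0993 and 0.0881). The inhibitors most tied to interferon receptors, picked after their values were seen, did not pass. Socs1 averaged 7.75 ± 1.72 CPM in the controls and 6.87 ± 2.08 CPM in the knockouts (adjusted p = 0.67 by edgeR, n = 3 each). Usp18, which binds IFNAR2, stood at 0.842, 0.442 and 0.364 CPM in the controls and 1.85, 0.784 and 35.1 CPM in the knockout libraries (adjusted p = 0.0606 by edgeR). With under 1 CPM in each control library, it entered the test through its knockout counts. Its fitted fold was 22.2 with all libraries and 2.34 without knockout library 3 (adjusted p = 0.108 by edgeR). Usp18 passed without knockout library 1 or 2 (adjusted p = 0.0427 and 0.032 by edgeR), and DESeq2 gave it no adjusted p.

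Summed target levels were highest in knockout library 3, as were Stat2 and Irf9. Summed over 20 genes of the ISGF3 type, levels were 95.1, 54.4 and 51.1 CPM in control and 170, 115 and 1315 CPM in knockout. Summed over 18 genes listed as targets of type II interferon they were 66.6, 46.5 and 41 CPM in control and 105, 93.4 and 497 CPM in knockout. Whether the 2 lists answer to separate interferons was not tested. In both sums every knockout library was above every control and knockout library 3 was highest. Of 17 ISGF3-type targets with enough counts, 14 rose and 3 did not pass, and of 12 type II targets 7 rose and 5 did not pass, where 20.3% of all genes rose. Of those tested, 10 and 5 averaged under 1 CPM in control. Some in each list, such as Oas2 and Psmb9, entered the test only through their knockout counts, so these numbers do not measure the lists. Without knockout library 3, 13 of 17 rose in the first list, and 8 of 13 rose and 1 fell in the second, beside 48.3% of all genes called. The gene that fell was Ido1, picked after its values were seen. It had 0.655, 0.442 and 0.547 CPM in the controls and no count in any knockout library. It was not tested with all libraries and entered here through its control counts alone, so the filter set its direction. Without control library 1, 2 or 3 none of the 18 ISGF3-type targets then tested passed in edgeR (15, 12 and 12 had an unadjusted p under 0.05), and 3, 1 and 0 of the type II targets rose (8, 8 and 7 had an unadjusted p under 0.05), beside 21.5%, 18.4% and 18.8% of all genes called.

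Single targets were highest in knockout library 3 too. Dhx58, an RNA helicase of the antiviral response, stood at 0.982, 0.589 and 0.668 CPM in the controls and 5.56, 6.76 and 63.6 CPM in the knockout libraries. It rose 33.4-fold (adjusted p = 0.016 by edgeR) and 8.15-fold without knockout library 3. Ifit2, an antiviral RNA-binding protein, rose 11.6-fold (adjusted p = 0.0186 by edgeR) and 4.18-fold without knockout library 3. Oas2, an oligoadenylate synthetase, had 2 counts in control and 924 in knockout, 488 times more in CPM (exact 95% interval 135 to 4034, for counting error only), at 5.88, 0.833 and 48.9 CPM in knockout libraries 1, 2 and 3. Of the type II targets, the peptide transporter gene Tap1, the immunoproteasome gene Psmb8 and the class I transactivator Nlrc5 rose 18.4-fold, 17.1-fold and 11.5-fold (adjusted p = 0.0102, 0.0124 and 0.0147 by edgeR). Without knockout library 3 they rose 8.33-fold, 8.52-fold and 4.94-fold. Tap1 and Psmb8 were fitted 28.0-fold and 33.7-fold higher once control library 1 was left out. Calls of Dhx58, Ifit2, Oas2 and Nlrc5 were lost without any 1 control library (adjusted p = 0.0557 to 0.0794), that of Psmb8 without control library 2 or 3 (0.0585 and 0.0517) and that of Tap1 without control library 3 (0.0517). With limma-voom the calls of Dhx58, Ifit2 and Oas2 were lost (adjusted p = 0.0918, 0.0764 and 0.103). DESeq2 gave Dhx58 no adjusted p. Also in the type II list, Cxcl10 did not pass (adjusted p = 0.246 by edgeR) and Ciita had no count in any library. Cxcl10 and Ciita were picked after their values were seen.

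**Figure D4:**
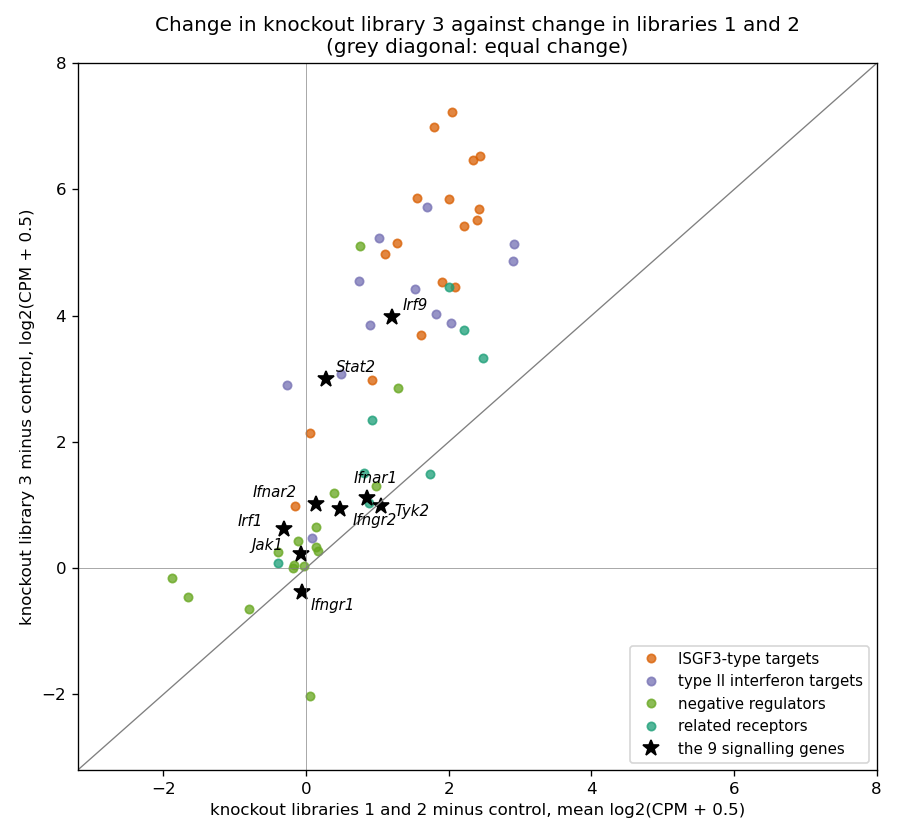
Points are the 9 genes (stars) and the tested genes among the ISGF3-type targets, type II targets, negative regulators and related receptors. Other genes are not shown. The horizontal axis is the mean of knockout libraries 1 and 2 minus control. The vertical axis is knockout library 3 minus control, both as log2(CPM + 0.5). Stat2 and Irf9 lay 2.72 and 2.77 above the diagonal of equal change, beside many targets, while Tyk2 lay 0.07 below it.

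Chains of other receptors of JAK-STAT signalling were counted as a comparison. Of 8 tested, 7 rose and 1 did not pass, with a median log2 fold change of 2.31, where 20.3% of all genes rose and their median was 0.03. Il2rg, 1 of the 7, had under 1 CPM in control and entered the test through its knockout counts, so the number and the median do not measure the list. Lifr and Osmr, receptor chains for cytokines of the IL-6 family, rose 8.34-fold and 11.98-fold, Il6ra rose 8.05-fold and their shared chain Il6st (gp130) 2.13-fold (adjusted p = 0.00167, 0.0182, 0.00498 and 0.012 by edgeR). Il6st stood at 49.3, 53.9 and 54.4 CPM in the controls and 82.1, 104 and 151 CPM in the knockout libraries. Without knockout library 3 Il6ra rose 4.87-fold and Osmr 5.03-fold (adjusted p = 0.00496 for Osmr). The calls of Osmr and Il6st were lost without any 1 control library (adjusted p = 0.0536 to 0.0786), and that of Osmr with limma-voom (adjusted p = 0.0789). Il2rg, the common gamma chain, had 3 counts in control and 69 in knockout, 24.3 times more in CPM (exact 95% interval 7.97 to 121, for counting error only), and its fitted fold was 21.6 with all libraries and 36.3 without control library 1. Without control library 1, 2 or 3, 3 of the 8 passed, beside 21.5%, 18.4% and 18.8% of all genes. Osmr and Il6st were named after their values were seen.

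The genes most like Stat2, Irf9 and Irf1 were sought by Pearson's r of log2(CPM + 0.5) over the 6 libraries, among 10293 other genes that averaged 5 CPM or more. Knockout library 3 stands apart among the 6 points, and r is given as a description. Among the nearest to Stat2 were Znfx1 (0.998) and Mef2d (0.997). Znfx1, an RNA helicase, stood at 23.5 to 26.4 CPM in the controls and 25.7, 33.4 and 101 CPM in the knockout libraries. Nearest to Irf9 were Sat1, Shisa5 and Ifi207 (all 0.999), and Sat1, the spermidine acetyltransferase, stood at 36.2 to 39.6 CPM in the controls and 64, 65.4 and 202 CPM in the knockout libraries. Nearest to Irf1 were Hdac11 (0.991), Mvb12a (0.985) and Sh3bp2 (0.985), and Hdac11 stood at 11 to 18.9 CPM in the controls and 9.15, 8.77 and 33.5 CPM in the knockout libraries.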

How the data were processed

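The data are 1 table of whole-number counts per gene symbol for 6 libraries, deposited by the authors. Per the submitters' processing notes the tools were STAR 2.7.1a and featureCounts and the build was hg38, with no role given for either; the symbols are those of mouse, although the labels give human as species. For annotation and strand no statement was found, and no mouse sequence or position was used. The 1704 rows that were at 0 in control library 1 but not in every library held only multiples of 11 and were divided by 11. None of the 9 genes was among them. Libraries were grouped by their titles. edgeR 4.0.16 in R 4.3.3 was used over all genes (filterByExpr, TMM, robust quasi-likelihood test, Benjamini-Hochberg adjustment, threshold 0.05; biological coefficient of variation 28%), with DESeq2 1.42.0, limma-voom (limma 3.58.1), other scalings, filters and left-out libraries as alternatives. CPM are counts per TMM-scaled library total. Standard errors come from the fold change and test statistic. Within groups all pairs of libraries differed beyond sampling noise (chi-square per degree of freedom 8.84 to 187). In simulated counts over 12200 genes for knockout against control, 100 genes were changed 2-fold and 100 were changed 4-fold. Of these, 29% and 89% were found again, beside 8 false calls. In the data 35.7% of genes passed, a far larger share than was changed in the simulation. The adjusted threshold therefore differs, and the shares found again do not give the power of the comparison made here. The genes and lists were chosen with earlier results of these data known. Besides the 9 genes and Elavl1, up to 3 genes per list with the smallest p, and the 3 genes most correlated with Stat2, Irf9 and Irf1, were named by rule, and some of these are not reported here.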

Additional observations from a re-analysis of the deposited data

How the results depend on the processing

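Ifnar1 and Tyk2 kept their direction and call in all 15 alternatives; Irf9 kept its direction in all and its call in 10. The number of the 9 genes called lay between 2 and 4 (4 with DESeq2 and without knockout library 1; 2 with limma-voom, the replicate block and without control library 1, 2 or 3). Genes without a call changed sign as follows. Irf1 had log2 fold changes of -0.0081 with limma-voom, -0.000203 with the replicate block, -0.03 and -0.0077 without control library 2 or 3 and -0.32 without knockout library 3. Jak1 was at -0.0048 without control library 2 and -0.07 without knockout library 3, Ifngr1 at 0.03 without control library 1 and Elavl1 at 0.0061 without knockout library 3. Over the fits that left out 1 library, log2 fold changes ranged from -0.35 to 0.031 for Ifngr1, -0.068 to 0.102 for Jak1, -0.32 to 0.24 for Irf1 and -0.089 to 0.0061 for Elavl1. Leaving out 1 library gave 2312 to 6021 genes called over all genes (18.4% to 48.3%), where 4392 (35.7%) passed with all libraries. For the lists, it gave 5 to 13 called in the receptor, JAK, STAT and IRF families, 1 to 5 negative regulators, 0 to 16 ISGF3-type targets, 0 to 10 type II targets and 3 to 8 related receptors, and 3 to 10 family genes beyond the 9. Of the ISGF3-type targets, DESeq2 called 7 (8 had no adjusted p), limma-voom 0 (8 at an unadjusted p under 0.05) and the fit with the replicate block 7. Limma-voom called 4 type II targets. Over all genes DESeq2 called 43.0% and limma-voom 34.9%. The titles do not state that the numbers pair libraries, so they were not taken to pair them. Same-numbered libraries deviated together at r = -0.05, 0.28 and 0.04 (across genes), and 0.28 was the highest of any control with any knockout library. Deviations within a group of 3 sum to 0, so these r values cannot settle whether libraries were paired. The block called 3591 of 12293 genes, and Irf9 had an adjusted p of 0.0706 with it in edgeR. Of the scalings, DESeq2-type size factors moved the median of all genes from 0.03 to 0.01. Of the targets tested, 10 of the ISGF3 type and 5 of type II averaged under 1 CPM in control. The promoter search planned was not run, as no mouse promoter was used.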
